A study of Homo sapiens with 6 samples.

Results

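The long non-coding RNA (lncRNA) genes of chromosomes 1 to 22 made up 331 of the 2462 genes in the deposited table, which holds the genes that the authors had called as differing between T24 bladder carcinoma cells and their chemoresistant derivative. A gene was taken as a lncRNA gene where the table gave it 1 of 5 biotypes. By biotype, 140 were lincRNA genes, which lie between other genes, and 137 were antisense genes, which lie across from another gene. A further 27 were processed transcripts, 19 were sense intronic genes within an intron of another gene, and 8 were sense overlapping genes. Each was compared between the groups, and with the protein-coding gene of the table whose start of transcription was nearest on the same chromosome.

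T24 is a widely used, established line of human bladder carcinoma cells. T24-R, titled T24DDP in the sample labels, is a derivative of it made resistant to gemcitabine plus cisplatin by repeated exposure to rising doses of both drugs. Total RNA of 3 T24 and 3 T24-R libraries was sequenced, both groups come from the same parental line, and T24-R is a single selected derivative, so a difference that comes with the selection of 1 derivative cannot be told apart from one that comes with resistance. The methods state in general terms that experiments were repeated independently, but the labels do not say which culture each library came from, so p-values measure only the spread between these libraries, part of which may be technical. In bulk RNA fewer cells of a type and less RNA per cell cannot be told apart. Because the table lists only genes that passed the authors' own test on these libraries, a gene outside it was not analysed here, and markers of the bladder lining could not be checked where they are not listed.

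A lncRNA is a transcript without a recognised coding frame, and its gene often starts close to the start of a protein-coding gene on the other strand, where both can be transcribed from 1 shared promoter region. Some lncRNAs act on the chromatin or transcription of the gene next to them, some bind proteins or microRNAs elsewhere in the cell, and some are mainly carriers of small RNAs, such as small nucleolar RNAs (snoRNAs) and microRNAs, that are cut out of their introns or exons. Most lncRNAs are present at lower levels than messenger RNAs, so that their counts carry more sampling error.

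The sequences between the start of a lncRNA gene and that of its neighbour are shown for 6 pairs that are transcribed away from each other (head to head), since the report returns to these pairs for whether both genes of a shared region differed together. On the deposited scale they include the pair whose genes differed in opposite directions (MAFG-DT), pairs in which both genes were lower in T24-R (SUCLG2-AS1 and AC139530.1), and pairs in which both were higher. All were read from the + strand of GRCh38, 5′ to 3′, and lie outside the annotated bodies of both genes in the table. Capitals mark a GC box (GGGCGG) or a CCAAT box (CCAAT) on either strand, so that the reverse letters CCGCCC and ATTGG are in capitals too.
MAFG-DT and MAFG, chr17:81927715-81927828: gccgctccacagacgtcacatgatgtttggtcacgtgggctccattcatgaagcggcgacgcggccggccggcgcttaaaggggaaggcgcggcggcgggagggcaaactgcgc
AC022211.2 and MIF4GD, chr17:75271228-75271368: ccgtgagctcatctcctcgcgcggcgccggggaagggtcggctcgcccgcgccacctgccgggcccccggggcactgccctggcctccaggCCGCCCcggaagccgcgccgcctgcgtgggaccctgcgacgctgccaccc
MNX1-AS1 and MNX1, chr7:157010652-157010804: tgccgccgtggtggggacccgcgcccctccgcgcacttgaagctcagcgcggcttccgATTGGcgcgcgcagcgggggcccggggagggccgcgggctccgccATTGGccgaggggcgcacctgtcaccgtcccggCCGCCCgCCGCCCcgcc
PRKCQ-AS1 and PRKCQ, chr10:6580302-6580418: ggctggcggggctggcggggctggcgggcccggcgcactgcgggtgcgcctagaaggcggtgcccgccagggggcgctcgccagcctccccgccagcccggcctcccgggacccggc
SUCLG2-AS1 and SUCLG2, chr3:67654615-67654696: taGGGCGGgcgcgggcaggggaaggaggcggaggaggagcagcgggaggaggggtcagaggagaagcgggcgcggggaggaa
AC139530.1 and MRPL12, chr17:81703301-81703356: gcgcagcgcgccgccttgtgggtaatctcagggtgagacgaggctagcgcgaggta

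Between the starts of the 19 head-to-head pairs within 2 kb that were read, GC content ran from 52.3 to 84.6% with a median of 71.1%. At least 1 GC box lay in 13 of the 19 intervals, at least 1 CCAAT box in 5 and a TATA box (TATAAA) in 1. These intervals differ in length, so the fixed windows of RefSeq (GRCh38), from 250 bases before to 50 after a start, give the comparable shares. A GC box was found in 54.3% of the 129 lncRNA promoters that RefSeq holds and in 44.6% of 27305 promoters of all genes. For the CCAAT box the shares were 30.2% and 35.7%, and for the TATA box 14.0% and 12%. Among the 102 promoters of lncRNA genes that were higher in T24-R, 57.8% held a GC box, against 40.7% of the 27 that were lower. These are letter matches on both strands and say nothing of a factor at them.

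The microRNAs carried by 3 of the lncRNA genes are shown, since the report returns to these hosts. That they differed between the groups does not set them apart, because every listed gene was chosen for differing. A search of the RefSeq hairpins found 5 of them inside 4 lncRNA genes, all on the strand of the host. The microRNAs of the remaining host are not shown. Capitals mark the seed, bases 2 to 8 of the mature RNA, which pairs with target messages, and no 2 of the seeds below were the same.
hsa-miR-146a-5p in MIR3142HG: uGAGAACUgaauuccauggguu
hsa-miR-146a-3p in MIR3142HG: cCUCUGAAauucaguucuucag
hsa-miR-3142 in MIR3142HG: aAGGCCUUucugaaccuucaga
hsa-miR-181a-5p in MIR181A2HG: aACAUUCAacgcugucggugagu
hsa-miR-181a-2-3p in MIR181A2HG: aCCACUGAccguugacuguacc
hsa-miR-130a-5p in AP000662.1: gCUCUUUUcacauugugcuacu

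Most of the lncRNA genes were higher in T24-R. Of the 331, 261 were called higher and 67 lower, and the 3 not called were AC010168.2, AC068473.5 and KIF9-AS1. A gene was called where limma, fitted to log2(scaled count + 1) over all listed genes, gave a Benjamini-Hochberg adjusted p under 0.05 with a log2 fold change beyond 1 in either direction. The scaled count is the number of reads on a gene divided by 1 size factor per library, as deposited. Among all listed genes 98.3% were called, 69.2% as higher and 29.2% as lower, which follows from how the table was made. Higher calls made up 78.9% of the lncRNA genes and 72.0% of the 1789 protein-coding genes of the same chromosomes, and the groups did not overlap for 324 of the lncRNA genes, against 99.1% of all listed genes.

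The median log2 fold change of the lncRNA genes was 1.72, against 1.43 for the protein-coding genes and 1.41 for all listed genes. With each gene whose reads were 0 in every library of 1 group set to its lower bound, these medians were 1.60, 1.40 and 1.35. All of these directions are on the deposited scale. TMM factors computed on this table, which take the listed genes as centred on no change, shifted the median of all listed genes by -1.32 to 0.09. With them the median of the lncRNA genes was 0.47, 86 were called higher and 67 lower, and 47 lncRNA genes that were higher on the deposited scale had a negative value, while none of the lower ones turned positive. These factors scale whole libraries and here moved T24-R down, so a lower gene had no way to turn positive. The unchanged 67 lower calls are therefore no sign that the falls were more stable than the rises.

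The lncRNA genes had lower levels than the protein-coding genes. The median scaled count over the 6 libraries was 18.8 for the lncRNA genes and 83.1 for the protein-coding genes. Per kilobase of the deposited gene length, the median level went from 4.17 in T24 to 12.1 in T24-R for lncRNA genes and from 8.90 to 23.8 for protein-coding genes. In T24, 69 of the 331 lncRNA genes (20.8%) had 3 reads or fewer in every library, against 11.8% of the protein-coding genes, and in T24-R 13 had. A mean of at least 100 was reached by 23 lncRNA genes (6.95%) and by 46.6% of the protein-coding genes. Among genes under a mean of 50, where 266 of the lncRNA genes lay, 80.8% of the lncRNA genes and 84.4% of the protein-coding genes were called higher, and from 50 upward 70.8% and 63.6%.

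**Figure D1:**
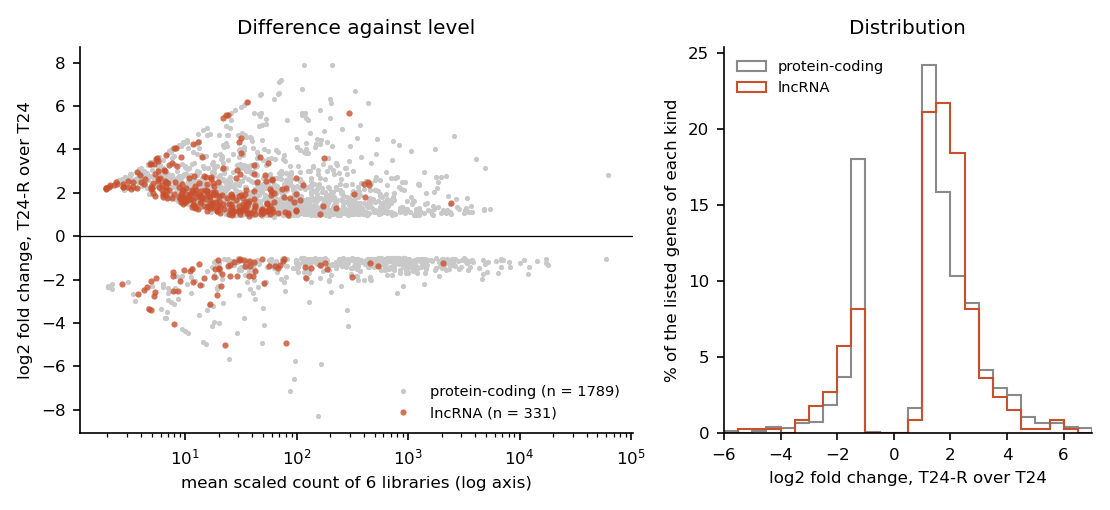
Left, log2 fold change (T24-R over T24) against the mean scaled count of the 6 libraries on a log axis, 1 point per gene, for the 331 lncRNA genes and the 1789 protein-coding genes of chromosomes 1 to 22. Right, the share of each kind by log2 fold change. The lncRNA genes lie at lower levels than the protein-coding genes, and the empty band around 0 is the selection by which the table was made.

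The libraries were of like depth, with 1170731 to 1411926 reads on listed genes and size factors of 0.939 to 1.08. The lncRNA genes took 0.999 to 1.09% of these reads in T24 and 1.41 to 2.01% in T24-R. T24-R replicate 3 stood apart, since 22.3% of its reads on listed genes were on MT-RNR2, a mitochondrial ribosomal RNA gene, against 9.33 and 9.36% in the other T24-R libraries and 3.23 to 3.37% in T24. In it the lncRNA genes had a median log2 value 0.16 below replicates 1 and 2 (-0.16), the protein-coding genes one of -0.03, and the 19 sense intronic genes one of 0.34. Without that library 256 lncRNA genes were called higher and 55 lower. The 12 lower calls lost included SNHG1, SNHG15, LINC01605 and AC139530.1, whose values without it are given below.

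In each biotype more genes were called higher than lower on the deposited scale, where 69.2% of all listed genes were called higher. Higher calls were 105 of 140 lincRNA genes, 111 of 137 antisense genes, 25 of 27 processed transcripts, 14 of 19 sense intronic genes and 6 of 8 sense overlapping genes. With TMM factors, 3 sense intronic genes were called higher and 5 lower, and 37 and 34 lincRNA genes. With median centring these counts were 2 and 5 and 22 and 34, and for antisense genes 21 and 25. On the deposited scale the medians ran from a log2 fold change of 1.43 for sense overlapping genes to 2.36 for processed transcripts. By chromosome, both kinds of gene were mostly lower on chromosome 3, while the protein-coding genes of chromosome 22 were split about evenly. On chromosome 3, 2 of 12 lncRNA genes were called higher and 9 lower, beside 50 and 88 of 139 protein-coding genes, and on chromosome 22, 2 of 5 were higher and 3 lower, beside 19 and 21 of 41. On chromosomes 4, 6, 13 and 14 all 36 lncRNA genes had a positive value on the deposited scale. On chromosome 12, 7 of 14 lncRNA genes were called higher and 6 lower, beside 73 and 10 of 85.

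AC107884.1, named SYT9-AS1 in GENCODE version 44 and lying at chr11:7427266-7512515 on the - strand, was the largest rise among lncRNA genes with a mean of at least 50. Its scaled counts were 9.58, 7.15 and 14.5 in T24 against 467, 551 and 723 in T24-R. The log2 fold change was 5.70 (SE 0.27, limma with Benjamini-Hochberg adjustment, adjusted p = 6.51e-07, n = 3 a group). Its start lay 783 bases from that of PPFIBP2, which encodes a liprin, a scaffold protein of the cell cortex. PPFIBP2 was at 13.8, 13.3 and 11.6 in T24 against 89.8, 84.97 and 112 in T24-R, a log2 fold change of 2.79 (SE 0.22). The lncRNA gene rose more than its neighbour, and the log2 ratio of the pair rose by 2.91 (SE 0.37, limma adjusted p = 6.37e-05).

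SFTA1P, an expressed pseudogene of a surfactant-associated gene, rose from 36.2, 14.3 and 31.9 to 374, 327 and 272, a log2 fold change of 3.60 (SE 0.32). C8orf31, which GENCODE names LINC02904, was at 9.58, 8.17 and 8.71 in T24 and at 115, 97.0 and 93.0 in T24-R (3.38, SE 0.22). MIR1-1HG-AS1 (CRMA), at chr20:62544343-62551526, was at 10.6, 11.2 and 13.6 in T24 and at 83.8, 117 and 74.4 in T24-R (2.84, SE 0.25). For all 3 the values stayed above 1 and called with TMM factors. The nearest listed protein-coding gene of MIR1-1HG-AS1, the collagen gene COL9A3, was lower in T24-R (-1.20, SE 0.37), although its start was 264718 bases away.

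AC023301.1 and AP002761.4 rose from 30.9, 25.5 and 21.3 to 164, 147 and 207 (2.69, SE 0.21) and from 121, 125 and 137 to 606, 606 and 836 (2.39, SE 0.16). In GENCODE version 44 both lie wholly on exons of a protein-coding gene of the same strand, with an exonic overlap of 100% for each. In the coordinates of the table the first lies within the body of that gene and the second past its end. The first shares them with NETO1, which encodes a subunit of glutamate receptor complexes and rose by a log2 fold change of 2.198, and the second with P2RY2, a receptor for extracellular ATP and UTP, which rose by 1.83. With the exons of version 44, reads on these lncRNA genes and on their hosts could not be told apart. The version that the authors counted on is not given in the sources used here. Some exonic overlap with another gene was found for 164 of the 319 lncRNA genes that GENCODE version 44 holds, and for 57 it covered over 20% of the exonic bases. The library kit that the methods name does not mark strand, and whether the authors' counting used it is not given in the sources used here, so reads of genes that overlap on opposite strands cannot be told apart either.

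LINC02167, at chr16:35743268-35756515, showed the largest fall at a mean of at least 50. Its scaled counts were 154, 163 and 145 in T24 against 2.00, 6.47 and 4.90 in T24-R, which gave a log2 fold change of -4.93 (SE 0.35, limma adjusted p = 4.26e-06). LINC01293 fell from 88.3, 86.8 and 77.4 to 15.97, 22.2 and 16.7 (-2.16, SE 0.22). LINC01322, whose nearest listed protein-coding gene BCHE encodes butyrylcholinesterase, fell from 200.1, 189 and 192 to 46.9, 46.2 and 57.8 (-1.93, SE 0.16). For none of these 3 genes was replicate 3 the lowest T24-R library.

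AC006058.1, SERTAD4-AS1 and PRR34-AS1 were lower in T24-R, and lowest in T24-R replicate 3. AC006058.1 was at 429, 527 and 522 in T24 and at 172, 171 and 78.3 in T24-R (-1.89, SE 0.29, and -1.51 without replicate 3). SERTAD4-AS1 was at 216, 183 and 180.02 and at 87.8, 92.4 and 42.1 (-1.45, SE 0.29, and -1.09 without replicate 3), and PRR34-AS1 was at 108, 89.9 and 92.0 and at 34.9, 61.9 and 17.6 (-1.48, SE 0.39, and -1.03 without it). AL138789.1 was at 188, 160 and 164 in T24 and at 59.9, 82.2 and 51.9 in T24-R, with a log2 fold change of -1.41 (SE 0.20). Of its exonic bases 35.0% overlap those of DEPDC1, a cell-division gene that is not listed.

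**Figure D2:**
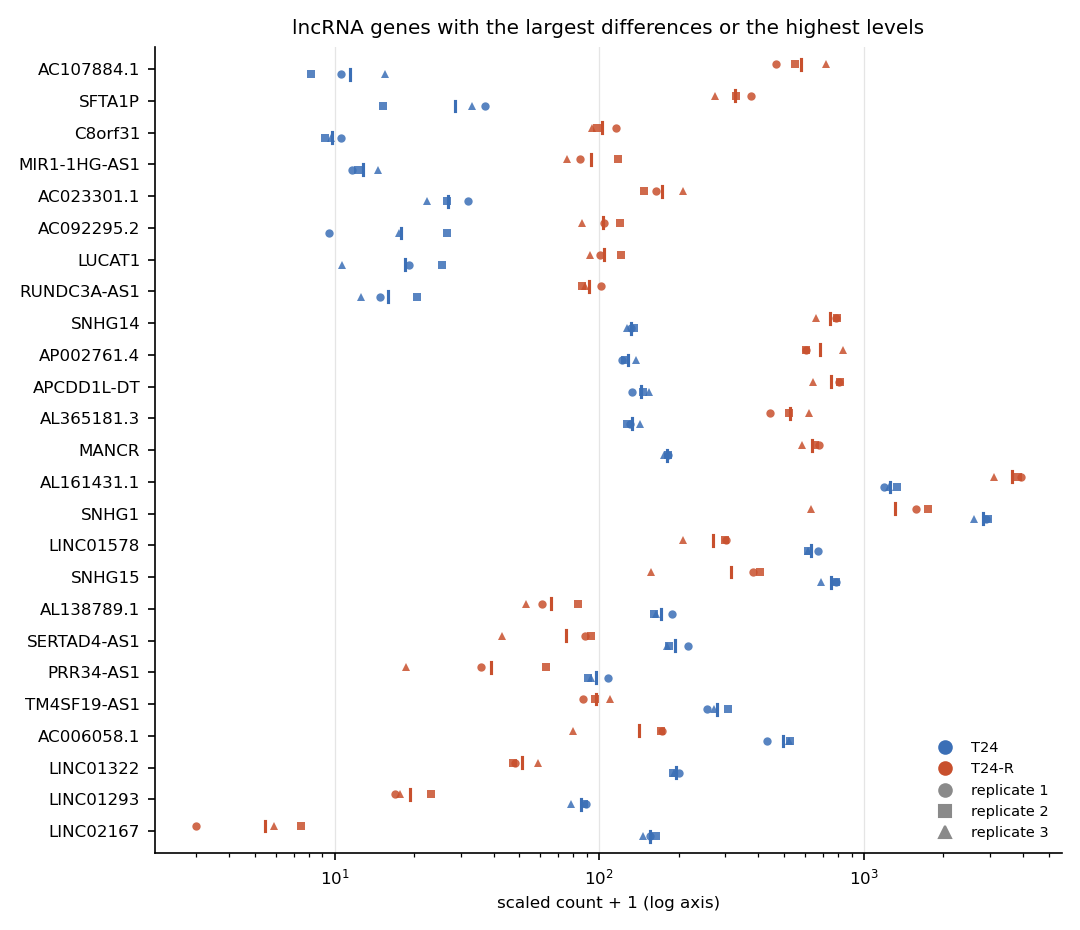
Scaled count + 1 on a log axis for the lncRNA genes with the largest and smallest log2 fold change at a mean of at least 50 and those with the highest mean. Points are libraries, with a shape for each replicate, and short vertical bars are group means. The 2 groups do not overlap for any gene shown. This was a condition for the largest and smallest, and it holds for 99.1% of all listed genes. T24-R replicate 3 (triangle) lies furthest to the left for SNHG1, SNHG15, AC006058.1, SERTAD4-AS1 and PRR34-AS1.

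Some lncRNA genes had no read in 1 of the groups, 25 in every T24 library and 3 in every T24-R library. TDRG1, a gene first described in testis and named here after its values were seen, was at 0 in the 3 T24 libraries and at 75.8, 84.1 and 56.8 in T24-R, which was at least 23.7-fold higher when 3 reads in each T24 library are taken as the floor. EPHA1-AS1, also named after its values were seen, went the other way, from 20.2, 12.3 and 15.5 in T24 to 0 in the 3 T24-R libraries, at least 5.51-fold lower. LINC01234, named after its values were seen as well, had 132 reads over the T24 libraries and 2 over the T24-R libraries, a ratio of 69.5 for T24 over T24-R with an exact 95% interval of 18.8 to 579 that covers counting error only.

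AL161431.1 (LINC03061), at chr13:109269634-109278512, was the most abundant of the listed lncRNA genes in T24-R, per kilobase and by count. Genes outside the table have no values here, so the ranking does not cover them. Its scaled counts were 1196, 1341 and 1246 in T24 against 3925, 3840 and 3099 in T24-R (1.51, SE 0.12, limma adjusted p = 8.47e-06), and its level per kilobase went from 248 to 712. MANCR, a lncRNA named for its association with mitosis, rose from 181, 182 and 175 to 677, 651 and 582 (1.82, SE 0.11). The groups of both genes were far apart for their spread. With TMM factors the values of AL161431.1 and MANCR were 0.16 and 0.47 and neither was called.

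LINC01578, which GENCODE names CHASERR, fell from 672, 616 and 613 to 300.4, 298 and 207 (-1.26, SE 0.16). CHASERR is known as a regulator of the chromatin remodeller gene CHD2, which lies next to it and was not analysed here. The value without replicate 3 was -1.08, and the gene was still called.

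The snoRNA hosts did not share a direction. From a list of 36 symbols, 4 were listed as lncRNA genes here, with 3 called lower and 1 higher. Among all listed genes 29.2% were called lower and 69.2% higher. SNHG1, which hosts snoRNAs that guide chemical modification of ribosomal RNA, was the most abundant of the listed lncRNA genes in T24, per kilobase and by count. It was at 2911, 2956 and 2616 in T24 and at 1576, 1744 and 630 in T24-R, a log2 fold change of -1.23 (SE 0.34, limma adjusted p = 0.00614). Every T24-R library was below every T24 library, but without T24-R replicate 3 the value was -0.77 and the call was lost. SNHG15 went from 783, 788 and 689 to 381, 404 and 156 (-1.38, SE 0.32), and without replicate 3 to -0.94, not called.

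SNHG9 was at 18.1, 21.5 and 23.2 in T24 and at 7.98, 10.2 and 0 in T24-R, a log2 fold change of -2.23 (SE 0.81, limma adjusted p = 0.024) that was -1.12 without T24-R replicate 3, still called. The call was lost without T24 replicate 1, 2 or 3 (values of -2.33, -2.21 and -2.16) and with a pseudocount of 0.1 (-3.37). For SNHG1 and SNHG15 the log2 value of replicate 3 was lower than that of replicates 1 and 2 by differences of -1.40 and -1.33, while for all 65 lncRNA genes at a mean of at least 50 the median was -0.18. The part of the MT-RNR2 share of this library in these values was not tested. In GENCODE, 6 lncRNA genes held a snoRNA gene within their body, 3 of them called higher and 3 lower. These counts stand beside 69.2% and 29.2% of all listed genes.

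SNHG14 went the other way. It is the long paternally expressed transcript of the Prader-Willi region, at chr15:24978583-25419462, and holds 84 annotated snoRNA genes. Its scaled counts were 131, 135 and 127 in T24 against 783, 793 and 659 in T24-R, a log2 fold change of 2.50 (SE 0.12, limma adjusted p = 6.97e-07). PWAR6, a lncRNA gene within the same region, was at 4.26, 13.3 and 12.6 in T24 and at 77.8, 81.3 and 61.7 in T24-R (2.88, SE 0.40). SNURF, the nearest listed protein-coding gene of both and like them imprinted, was at 1.06, 1.02 and 0.968 and at 8.98, 6.47 and 17.6 (2.47, SE 0.38). All 3 were higher in every T24-R library, and the log2 ratio of SNHG14 to SNURF changed by 0.03 (SE 0.44, limma adjusted p = 0.969). SNURF had 1 read in each T24 library and 7 to 18 in the T24-R libraries, so the pseudocount of 1 weighs on its value and on this ratio. The group means differed 10.8-fold for SNURF and 5.70-fold for SNHG14, so the small ratio change does not show equal rises. PWAR6 lies within the body of SNHG14 on the same strand, so some reads may be shared between them, while SNURF ends before SNHG14 starts in the table. No other gene of the list of 23 symbols of imprinted loci was among the 331 lncRNA genes. PWAR5, on that list and in the table, is typed there as still to be experimentally tested, outside the rule (1.97, SE 0.28).

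**Figure D3:**
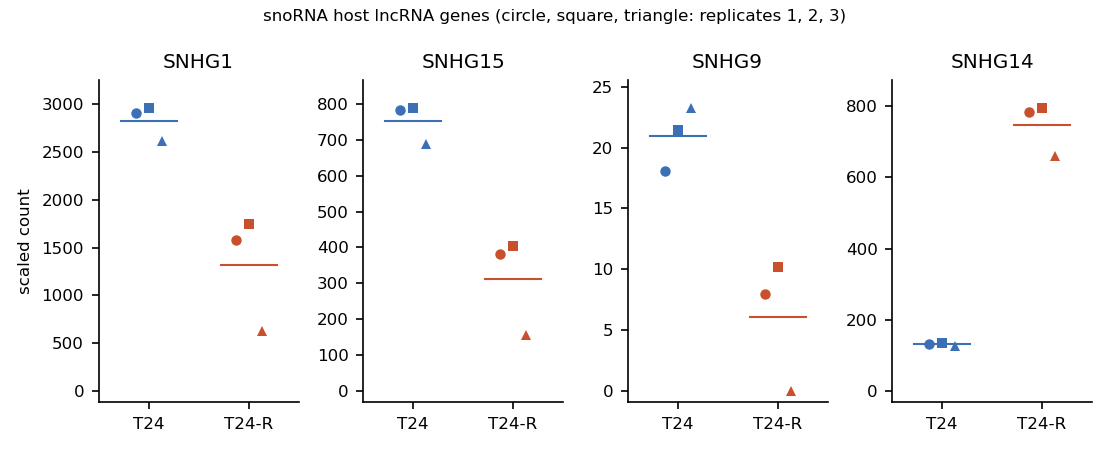
Scaled count of the 4 listed snoRNA host lncRNA genes in each library, with T24 on the left and T24-R on the right of each panel. Points are libraries, horizontal bars are group means, and the axes start just below 0. Replicate 3 of T24-R is the lowest library for SNHG1, SNHG15 and SNHG9, and SNHG14 is higher in all T24-R libraries.

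Both microRNA host genes of the fixed list were called higher in T24-R on the deposited scale, as were 69.2% of all listed genes. MIR3142HG, which contains the hairpins of miR-3142 and of miR-146a, a microRNA induced by inflammatory signalling, was at 26.6, 22.5 and 20.3 in T24 and at 153, 171 and 46.0 in T24-R (2.16, SE 0.45, and 2.76 without replicate 3, but 0.84 with TMM factors and 0.75 with median centring, not called). MIR181A2HG had 1 read over the T24 libraries and 18 over the T24-R libraries, a ratio of 17.1 with an exact 95% interval of 2.70 to 713. AP000662.1 (MIR130AHG in GENCODE), found by the hairpin search and not by the list, had 3 and 34 reads, a ratio of 10.8 with an interval of 3.39 to 54.8. Mature microRNAs are not measured by these libraries. The intervals cover counting error only.

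Of 21 HOX cluster lncRNA symbols, 2 were listed, both from the HOXB cluster. Both were called higher on the deposited scale, as were 69.2% of all listed genes. HOXB-AS4 was at 24.5, 25.5 and 21.3 in T24 and at 39.9, 56.3 and 79.3 in T24-R (1.21, SE 0.28), with a value of -0.10 under TMM factors and of 0.97, not called, without replicate 3. Its start lay 2319 bases from that of HOXB9, a body-patterning transcription factor gene, which rose by 1.55 (SE 0.12). HOXB-AS2 had 4 reads over the T24 libraries and 32 over the T24-R libraries, a ratio of 7.60 with an interval of 2.70 to 29.6.

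Of 78 symbols of lncRNA genes studied in bladder and other carcinomas, 5 were among the 331 genes, 4 called higher and 1 lower. Of all listed genes 69.2% were called higher and 29.2% lower. XIST, also on this list, is in the table but lies on chromosome X, outside the rule (1.30, SE 0.33, and -0.05 with TMM factors). LUCAT1, a lncRNA induced by cell stress, rose from 18.1, 24.5 and 9.68 to 99.8, 120.1 and 91.1 (2.58, SE 0.33). LINC00511 rose from 49.0, 67.4 and 38.7 to 157, 182 and 150 (1.67, SE 0.22), and its value with TMM factors was 0.33, not called. MNX1-AS1, the partner of the homeobox gene MNX1, was at 2.13, 0 and 1.94 in T24 and at 37.9, 24.01 and 18.6 in T24-R. BLACAT1, named after bladder cancer and typed protein-coding in GENCODE version 44, was at 13.8, 32.7 and 26.1 in T24 and at 48.9, 60.0 and 40.1 in T24-R (1.07, SE 0.34, adjusted p = 0.0123 by limma), with a value of -0.24 under TMM factors. Its call was lost without T24 replicate 1 (0.73) and without T24-R replicate 2 (0.93). LINC01605 was at 72.4, 60.3 and 63.9 in T24 and at 39.9, 31.4 and 23.5 in T24-R (-1.06, SE 0.24, and, not called, -0.87 without T24-R replicate 3 and -0.98 without T24 replicate 1). From a list of 22 lncRNA genes of the p53 and DNA damage response none was listed, which shows only that none passed the selection of the table.

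The comparison with the nearest listed protein-coding gene asked whether a lncRNA gene and its neighbour differed in the same direction. They did in 269 of 331 pairs (81.3%, Wilson 95% interval 76.7 to 85.1%). For the protein-coding genes and their nearest other listed protein-coding gene the share was 75.7%, 1355 of 1789 pairs. Because most genes of the table were higher in T24-R, such shares are high for any pair, and with TMM factors they were 65.6% and 58.7%. The 2 genes of a pair are measured in the same libraries, pairs can share a neighbour (VCAN is the neighbour of 4 lncRNA genes), and no p is given.

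By distance between the starts, the share was 26 of 30 for starts within 2 kb, 17 of 18 for 2 to 10 kb, 72 of 80 for 10 to 100 kb, 106 of 140 for 100 kb to 1 Mb and 48 of 63 beyond that. For protein-coding pairs the shares were 96.7, 95.7, 84.8, 71.5 and 69.3%. With TMM factors the shares were 80.0, 66.7, 75.0, 62.9 and 52.4% for lncRNA genes and 63.3, 45.7, 62.4, 57.1 and 59.4% for protein-coding pairs. Within 10 kb the order of the 2 kinds thus depended on the scaling, as did the decline with distance of the protein-coding pairs. The median distance of a lncRNA gene to its listed neighbour was 183710 bases, and among the 319 lncRNA genes found in GENCODE version 44 the listed neighbour was also the nearest annotated protein-coding gene for 86. In these pairs the direction was shared in 81 cases (94.2%), a subset chosen after seeing the data. By orientation the shares were 81.6% for head-to-head pairs, 90.0% for pairs overlapping on opposite strands, 78.1% for pairs on the same strand and 84.6% for pairs that end towards each other.

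**Figure D4:**
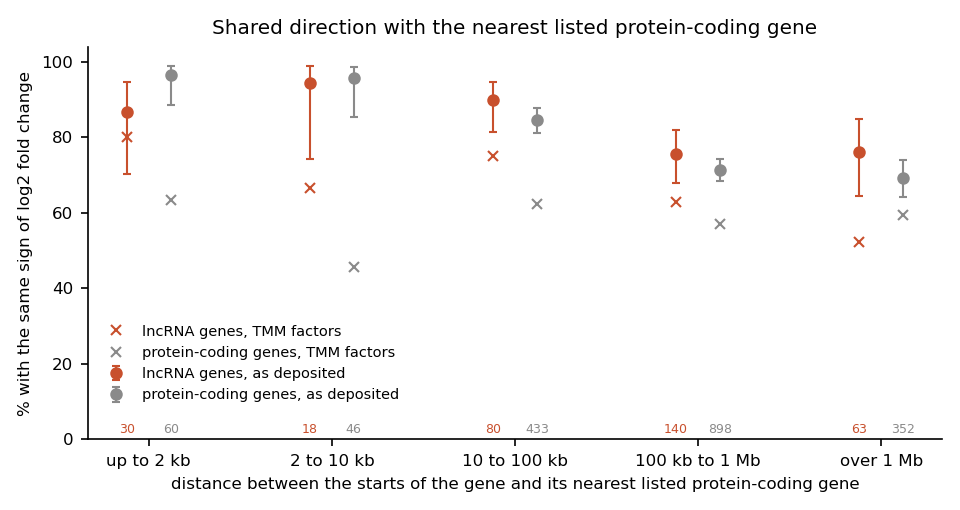
Share of genes whose log2 fold change has the same sign as that of the nearest listed protein-coding gene, by the distance between the starts, for lncRNA and protein-coding genes. Circles with Wilson 95% intervals are values as deposited, crosses are values with TMM factors, and the numbers of pairs stand above the axis. On the deposited scale the shares of lncRNA genes lie between 86.7 and 94.4% within 100 kb and at 75.7 and 76.2% beyond, and the crosses lie lower in every bin.

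Pairs that start within 2 kb on opposite strands shared a direction in 25 of 28 cases, and in 19 of the 20 among them that lie head to head with no overlap. Across the 28 pairs Pearson's r between the log2 fold changes was 0.79 and Spearman's rho 0.79. The lncRNA gene was higher beside all 21 neighbours that were higher, and beside the 7 that were lower it was lower in 4 and higher in 3. Of all 331 lncRNA genes 79.8% had a positive value and 20.2% were called lower. A higher lncRNA gene beside a higher neighbour is thus the usual outcome in this table.

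APCDD1L-DT, whose start lies 248 bases from that of APCDD1L, was at 132, 145 and 153 in T24 and at 806, 811 and 641 in T24-R (2.38, SE 0.14, limma adjusted p = 1.62e-06). APCDD1L, a relative of an inhibitor of Wnt signalling, was at 28.7, 31.7 and 24.2 and at 377, 344 and 342 (3.61, SE 0.16). Both were higher in every T24-R library, and the protein-coding gene rose more, with a change of the log2 ratio of lncRNA to neighbour of -1.23 (SE 0.24, limma adjusted p = 0.00129).

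NKILA, known as a lncRNA that restrains NF-kappa B signalling, was at 4.26, 4.09 and 1.94 in T24 and at 64.9, 59.1 and 56.8 in T24-R (3.84, SE 0.31). PMEPA1, a gene induced by TGF-beta that encodes a membrane protein, overlaps it on the opposite strand and went from 143, 112 and 139 to 2050, 1945 and 2042 (3.93, SE 0.12). The log2 ratio of the pair changed by -0.10 (SE 0.33, limma adjusted p = 0.84), and 13.1% of the exonic bases of NKILA overlap those of PMEPA1.

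MNX1-AS1 and MNX1, with starts 154 bases apart, had log2 fold changes of 3.67 (SE 0.50) and 2.86 (SE 0.31), and MNX1 was at 24.5, 12.3 and 23.2 in T24 and at 186, 149 and 112 in T24-R. The interval between them held 2 GC boxes and 2 CCAAT boxes. PRKCQ-AS1, named after its values were seen, had no read in T24 and was at 50.9, 48.0 and 31.3 in T24-R, at least 14.2-fold higher, and PRKCQ, a protein kinase C of T cells, whose start lies 118 bases away, was higher as well. The interval of this pair was 84.6% G and C and held none of the 3 motifs. SSTR5-AS1, the partner of a somatostatin receptor gene and also chosen after its values were seen, had 1 read over the T24 libraries and 80 over the T24-R libraries, a ratio of 76.0 with an interval of 13.3 to 3040.

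Smaller rises were shared by AC092295.2 (ZNF566-AS1, 2.65) and the zinc finger gene ZNF566 (1.62), by RUNDC3A-AS1 (2.55) and RUNDC3A (2.36), and by AL365181.2 (BCAN-AS1, 2.08), AL365181.3 (1.97) and BCAN (1.89), which encodes the matrix proteoglycan brevican. AC092295.2 rose more than its neighbour, with a change of the log2 ratio of 1.02 (SE 0.33, limma adjusted p = 0.0267). AL365181.3 was the most abundant of these, at 129.9, 127 and 141 in T24 and at 442, 519 and 619 in T24-R. MMP25-AS1 rose from 29.8, 35.7 and 32.9 to 102, 116 and 141 (1.83, SE 0.20) opposite MMP25, a membrane-bound metalloproteinase gene, which rose by 2.35 (SE 0.59), and 27.1% of its exonic bases overlap those of MMP25. With TMM factors AL365181.2 (0.76), AL365181.3 (0.62) and MMP25-AS1 (0.50) were no longer called.

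AC022211.2 and MIF4GD (1.16 and 1.05), TRAM2-AS1 and TRAM2 (1.05 and 1.33), and AC018653.3 and CLSTN3 (1.17 and 1.21) were also higher together on the deposited scale, but with TMM factors these 3 lncRNA genes had values of -0.17, -0.29 and -0.16. Their neighbours had values of -0.30, -0.02 and -0.15, so that the pairs still shared a sign. The calls of TRAM2-AS1 and AC018653.3 were also lost without T24 replicate 3 (0.97) and without T24 replicate 1 (0.84), respectively.

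**Figure D5:**
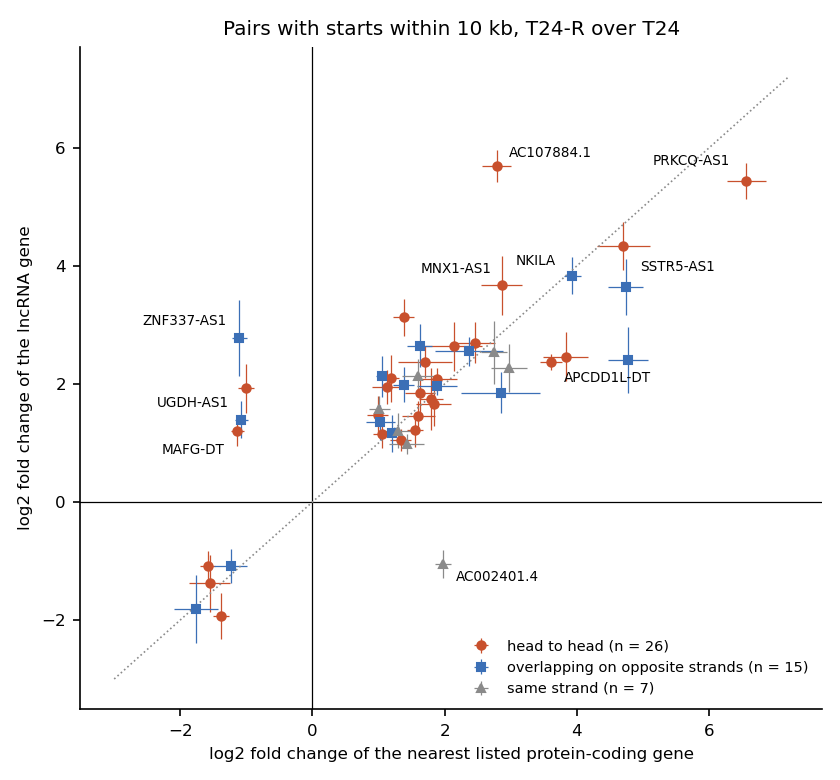
Log2 fold change (T24-R over T24) of each lncRNA gene against that of its nearest listed protein-coding gene for the 48 pairs with starts within 10 kb, with bars of 1 SE. Colours and shapes give the orientation, and the dotted line marks equal values. Most pairs lie in the upper right, and 5 pairs lie in the quadrants of opposite sign.

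MAFG-DT and MAFG differed in opposite directions on the deposited scale although their starts lie 115 bases apart. MAFG-DT was at 17.03, 22.5 and 15.5 in T24 and at 48.9, 36.9 and 44.1 in T24-R (1.20, SE 0.25, and -0.10 under TMM factors). MAFG, which encodes a small MAF protein that pairs with NRF2 in the response to oxidative stress, was at 2551, 2680 and 2623 and at 1217, 1270 and 1091 (-1.14, SE 0.10, and -2.49 under TMM factors). With TMM factors the pair thus shared a sign. No exonic overlap was found for MAFG-DT, and the log2 ratio of the pair rose by 2.34 (SE 0.24, limma adjusted p = 1.47e-05). This change is the difference of the 2 values on the deposited scale, so it is no separate support for their opposite signs. The interval between them held neither a GC box nor a CCAAT box.

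The other 4 pairs of opposite direction within 10 kb were chosen after their values were seen. ZNF337-AS1 rose by a log2 fold change of 2.78 (SE 0.64) and NANP had a value of -1.11, and 57.1% of the exonic bases of ZNF337-AS1 overlap another gene, ZNF337. UGDH-AS1 rose by 1.39 (SE 0.31), while UGDH, the enzyme that makes UDP-glucuronate, had a value of -1.07, and 14.7% of its exonic bases overlap those of UGDH. AC009902.3 rose by 1.93 (SE 0.41) beside FABP5, a fatty acid binding protein gene, at -1.002. AC002401.4 fell by 1.05 on the log2 scale (SE 0.24), with -1.19 to -0.94 when each library was left out and the call kept in 4 of these 6 fits, beside PDK2, a kinase that restrains pyruvate dehydrogenase, at 1.98. With TMM factors ZNF337-AS1 (1.76), UGDH-AS1 (0.14) and AC009902.3 (0.75) were not called. The log2 ratio passed the test in all 4 pairs, with changes of 3.89, 2.47, 2.93 and -3.03 in this order. These pairs were chosen for opposite signs, and both genes of each had values beyond 1. A ratio change above 1 therefore followed from the choice and is no separate support.

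Pairs that fell together included SUCLG2-AS1 and SUCLG2, which encodes a subunit of succinyl-CoA ligase of the citric acid cycle. SUCLG2-AS1 was at 43.6, 37.8 and 43.5 in T24 and at 15.0, 24.9 and 18.6 in T24-R (-1.08, SE 0.26, and -0.92, not called, without T24-R replicate 1), and SUCLG2 at 1650, 1588 and 1695 and at 590, 492 and 561 (-1.59, SE 0.11). AC139530.1 was at 51.1, 52.1 and 41.6 and at 25.9, 30.5 and 6.85 (-1.38, SE 0.49, and -0.75, not called, without T24-R replicate 3, the call being lost also without T24 replicate 1 or 2) next to MRPL12, a mitochondrial ribosomal protein gene, at -1.56. Of the exonic bases of AC139530.1, 91.0% overlap in GENCODE version 44 those of HGS, a gene that is not listed, and reads of the 2 genes cannot be told apart without strand. TM4SF19-AS1 fell from 255, 305 and 272 to 85.8, 95.1 and 109 (-1.52, SE 0.15) opposite TM4SF19 (-1.82, SE 0.11), with 25.2% of its exonic bases shared, and LINC01293 (-2.16) fell beside POLE4 (-1.44), which encodes a subunit of DNA polymerase epsilon.

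In the ratio of a lncRNA gene to its neighbour within a library a common scaling factor cancels, apart from the pseudocount of 1, which weighs on low counts. The ratio was called as differing between the groups in 122 of 331 pairs (36.9%), 57 with a rise and 65 with a fall, by limma on the log2 ratio with Benjamini-Hochberg adjustment and an absolute change above 1. Over all 2459 listed genes with a listed neighbour the share was 46.0%, above the share for the lncRNA genes. It was called in 9 of the 30 pairs with starts within 2 kb. For lncRNA genes without exonic overlap it was called in 61 of 155 pairs (39.4%).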

How the data were processed

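RNA of 3 T24 and 3 T24-R libraries was sequenced by the authors (NEBNext Ultra kit, per the paper's methods; the labels' protocol text names retinas, another kit and a mouse build, which the human cell line and identifiers contradict). The authors aligned reads to GRCh38 with HISAT2, counted them with featureCounts and tested them with DESeq2. The signal values that the authors deposited are read counts scaled by a size factor for each library. The log2 fold changes, p-values, gene length and group means that the authors deposited are in the same table; the fold changes, p-values and means were not used. The number of per-library columns left unused is 0. All values in each library were whole multiples of 1 step (100%, within 0.01 reads), from which reads and size factors were recovered.

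Lowly counted genes were kept. log2(value + 1) was fitted with limma 3.58.1 (R 4.3.3, trend) over all 2462 genes, without a block, and log2 ratios to the nearest listed protein-coding gene over 2459. Alternatives were other scalings, pseudocounts, a mean of at least 10, a replicate block, leaving out each library, edgeR 4.0.16, DESeq2 1.42.0 and other neighbour rules. The scripts were tested on simulated data. Annotation was GENCODE version 44 (319 of 331 identifiers found) and promoters, hairpins and mature microRNAs came from RefSeq on GRCh38. A floor of 3 reads per library was used, and intervals are at 95% and cover counting error only.

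Genes named are those on 6 lists of symbols, the 8 largest and 8 smallest log2 fold changes among called genes with a mean of at least 50 and no overlap, the 10 highest means, the 12 highest with starts within 2 kb on opposite strands, the 6 highest overlapping on opposite strands, and their neighbours, besides those said to be named after their values were seen. The members and lists were chosen with earlier results of these data known. The values of 1 pair of genes and some sequences are not reported here.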

Additional observations from a re-analysis of the deposited data

How the results depend on the processing

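With TMM factors and with median centring 153 and 122 lncRNA genes were called, 86 and 55 as higher, and 65.6 and 61.6% of pairs shared a direction. A pseudocount of 10 gave 161 calls, 129 higher and 32 lower. Among lncRNA genes without exonic overlap there were 153 calls, since fewer genes were counted. The shared direction was 89.8% with neighbours within 100 kb and 94.2% where the neighbour was the nearest annotated coding gene (chosen after seeing the data). With a mean of at least 10 the ratio was called in 79 pairs, since fewer pairs were tested. Under TMM factors and median centring the log2 fold changes of 6 named genes reversed, HOXB-AS4 to -0.10 and -0.20, MAFG-DT to -0.10 and -0.21, AC018653.3 to -0.16 and -0.25, AC022211.2 to -0.17 and -0.26, BLACAT1 to -0.24 and -0.35, and TRAM2-AS1 to -0.29 and -0.37. On the deposited scale these 6 genes had values from 1.05 to 1.21. TMM factors shifted the median of all listed genes by -1.32, and median centring took 1.41 off each gene, so the reversals follow from the scaling. Which scaling is right was not tested. Leaving out each library gave 310 to 322 calls, 249 to 258 higher and 55 to 66 lower, and 110 to 121 ratio calls. limma without trend, edgeR (331 calls) and DESeq2 (331 calls) moved no count by over 1.5 times, and 328 genes were called by all 3 tools. The authors had chosen these genes with DESeq2 on the same libraries, so calls by these tools follow from how the table was made. They are no separate support.

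The labels share replicate numbers, but same-numbered libraries deviated together only weakly (r = 0.07, 0.02 and 0.13), so the numbers were not taken as pairs. With the replicate block 328 genes were called, 261 higher and 67 lower, and 126 ratios, and no call of a named gene was lost. Low counts limit most of these genes, and the floor was reached by 69 of them in T24.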

Other observations

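Other non-coding genes of the table lay outside the rule. On chromosome X, 9 lincRNA genes were listed, 7 called higher and 2 lower, with 5 antisense genes, all called lower, and 1 sense overlapping gene called higher. On chromosomes 1 to 22, 2 bidirectional promoter lncRNA genes and 1 3-prime overlapping gene were called higher. Of 26 genes there of the class still to be experimentally tested (TEC), 19 were called higher and 7 lower. These counts stand beside 69.2% of all listed genes called higher and 29.2% called lower.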
